A study of Caenorhabditis elegans with 32 samples.

Results

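The 10 genes described here encode proteins of the epidermal precuticle and of the cuticle furrows of C. elegans: noah-1, noah-2, mlt-11, fbn-1, sym-1, let-653, lpr-3, dex-1, dpy-7 and dpy-10. They were chosen by their rise in the sorted samples of day 7 adults, so their levels in those samples are a description and carry no test. All 10 were found among the 46726 genes of the count table, and all 10 passed the low-count filter both in the 16 sorted libraries, where 11720 genes were tested, and in the 16 whole-worm libraries, where 10894 were. RNA had been sequenced from sorted O2-sensing neurons and from whole worms at 2 ages and 2 O2 levels, with 4 biological replicates in each of 8 groups. All animals were hermaphrodites of strain KL123, which carries the npr-1 allele ad609 on chromosome X and the integrated transgene iaIs25, made of Pgcy-37::GFP and the rescue marker unc-119(+). The groups were day 1 adults grown at 21% O2, day 1 adults grown at 7% O2, day 7 adults grown at 21% O2 and day 7 adults grown at 7% O2, each as sorted cells and as whole worms. Every group was fed mex-3 RNAi bacteria from the L3 stage, a treatment that stops embryos from hatching. Day 7 animals went back to OP50 bacteria on day 4, so age and the food at collection cannot be told apart.

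The samples have limits as models of single cell types. The gcy-37 promoter labels the URX, AQR and PQR neurons strongly and AVM and ASI weakly, and a sorted sample pools GFP-positive cells of many animals. For whole worms, RNA came from a portion of the same cell suspension set aside ahead of the sort. In bulk RNA, fewer cells of a type and less RNA per cell cannot be told apart.

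The cuticle of C. elegans is secreted by the epidermis and is replaced at each larval molt. Before each new cuticle is laid down, the epidermis assembles a transient apical matrix, the precuticle, from zona pellucida (ZP) domain proteins, leucine-rich repeat proteins and lipocalins. The precuticle shapes the body surface of the embryo and the narrow tubes of the excretory and vulval epithelia, and much of it is cleared when the collagen cuticle is complete. Furrow collagens mark the circumferential grooves of the cuticle and are made early in each molting cycle, ahead of most other collagens.

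Total counts per library ran from 5365596 to 30666288. Levels are given as CPM, which are counts divided by the library size after scaling by the trimmed mean of M values (TMM) over the 32 libraries. The noncoding gene F31C3.14, which lies in a ribosomal RNA locus, took between 5.33% and 53.8% of the counts of a library. Genes were compared with edgeR's quasi-likelihood test and called where the Benjamini-Hochberg adjusted p was under 0.1 and the fold change reached 1.5, which are the study's limits. The standard error (SE) of a log2 change was obtained from the change and its F statistic. A gene is called separated where the lowest library of one group exceeded the highest of the other. Means are followed by the SD over 4 libraries.

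The neuronal label of the sorted samples was checked against its markers. The summed level of 7 genes of O2-sensing neurons ran from 2756 to 9644 CPM in the sorted libraries of day 1, from 327 to 869 CPM in those of day 7 and from 7.52 to 22.1 CPM in whole worms. The O2-sensing markers were therefore above whole worms at both ages, at a lower level on day 7. A list of 7 genes used by all neurons ran from 13424 to 30049 CPM in sorted day 1 libraries and from 1399 to 4391 CPM in sorted day 7 libraries. Touch neuron genes (6 listed) summed to 4825 to 26211 CPM in sorted day 1 libraries and to 255 to 1091 CPM in those of day 7. In sorted day 7 libraries each of these neuronal sums lay below the junction and intestinal sums given further down. The sums do not give the share of a cell type in a sample.

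The genes noah-1 and noah-2 encode ZP domain proteins of the embryonic and larval precuticle. The gene noah-1 lies on chromosome I from 5874416 to 5878958 on the minus strand (WBcel235). In sorted day 1 cells it had 7.36, 91.8, 24.9 and 17.2 CPM at 21% O2 (replicates 1 to 4) and 26.6, 16.9, 4.17 and 6.45 CPM at 7% O2. In sorted day 7 cells it had 920, 971, 1153 and 639 CPM at 21% O2 and 1115, 1476, 1384 and 1088 CPM at 7% O2. The lowest sorted day 7 library was thus well above the highest sorted day 1 library, and noah-1 carried 28.6% of the summed CPM of the 10 genes in the sorted day 7 libraries. The log2 change with age was 4.72 (SE 0.66) at 21% O2, or 5.81 without replicate 2 of day 1, and 6.54 (SE 0.72) at 7% O2.

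For noah-2, on chromosome IV from 14091254 to 14096626, sorted day 1 levels were 6.54, 22.3, 15.3 and 1.52 CPM at 21% O2 and 3.95, 2.47, 13.8 and 9.37 CPM at 7% O2. Sorted day 7 levels were 566, 515, 499 and 303 CPM at 21% O2 and 595, 584, 706 and 479 CPM at 7% O2. No sorted library of one age reached the range of the other. The log2 changes were 5.38 (SE 0.65) and 6.34 (SE 0.69).

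The next 3 genes encode large or secreted matrix proteins. The product of mlt-11 carries Kunitz-type protease inhibitor domains and is needed for molting, and the gene lies on chromosome V from 20667205 to 20678537. It had 0.818, 49.4, 18.5 and 4.89 CPM in sorted day 1 cells at 21% O2 and 160, 4.62, 1.67 and 4.37 CPM at 7% O2. On day 7 it had 847, 889, 874 and 462 CPM at 21% O2 and 1196, 1036, 680 and 726 CPM at 7% O2. Replicate 1 of day 1 at 7% O2 stood apart from its group, and even this library was below every sorted day 7 library. The log2 changes were 5.40 (SE 1.32) at 21% O2 and 4.42 (SE 1.26) at 7% O2, and the latter was 7.98 without that library.

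The fibrillin-related ZP domain gene fbn-1 lies on chromosome III from 7625386 to 7641078. Its sorted levels ran from 1.82 to 59.3 CPM on day 1 and from 235 to 618 CPM on day 7 over both O2 levels, with log2 changes of 3.68 (SE 0.67) and 4.80 (SE 0.71). The gene sym-1, on chromosome X from 14581622 to 14584378, encodes an extracellular leucine-rich repeat protein. It ran from 1.95 to 29.5 CPM in sorted cells on day 1 and from 257 to 451 CPM on day 7, with log2 changes of 4.27 (SE 0.69) and 4.79 (SE 0.70). Neither gene overlapped between the ages.

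The next members are best known from the shaping of tubes and the anchoring of sensory endings. The gene let-653 (chromosome IV from 11885613 to 11891082) encodes a ZP domain protein of the excretory duct and vulva lumen, and lpr-3 (chromosome X from 11057401 to 11059793) encodes a lipocalin of the same apical matrices. Levels of let-653 in sorted cells ran from 0 to 13.9 CPM on day 1 and from 23.9 to 117 CPM on day 7, and those of lpr-3 ran from 0.104 to 6.11 CPM and from 22.3 to 84.0 CPM. The third gene, dex-1 (chromosome III from 5526104 to 5535507), encodes a zonadhesin-like matrix protein that anchors dendrite tips during embryogenesis. It ran from 4.96 to 32.1 CPM in sorted day 1 cells and from 136 to 267 CPM in sorted day 7 cells. Log2 changes at 21% and 7% O2 were 5.08 (SE 1.05) and 3.51 (SE 0.97) for let-653, 4.42 (SE 0.96) and 4.83 (SE 0.98) for lpr-3, and 3.66 (SE 0.53) and 4.12 (SE 0.54) for dex-1. These genes too were separated between the ages at both O2 levels.

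The furrow collagen dpy-7 lies on chromosome X from 7536467 to 7537792. In sorted day 1 cells it had 0.0909, 0.740, 0.0382 and 0.109 CPM at 21% O2 and 1.78, 0, 0 and 0.312 CPM at 7% O2, on counts between 0 and 23 per library. In sorted day 7 cells it had 39.6, 19.1, 34.4 and 10.4 CPM at 21% O2 and 43.5, 11.9, 19.8 and 30.8 CPM at 7% O2, on counts between 98 and 442. The gene was close to absent from day 1 sorted libraries, and the log2 changes were 6.66 (SE 1.37) and 5.60 (SE 1.30). With day 1 counts this low the size of the change rests on few reads, and it was 8.30 without replicate 2 of day 1 at 21% O2 and 7.90 without replicate 1 of day 1 at 7% O2.

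The furrow collagen dpy-10, on chromosome II from 6710149 to 6712227, had 1.27, 30.7, 2.33 and 2.93 CPM in sorted day 1 cells at 21% O2 and 19.8, 0.391, 5.56 and 0.312 CPM at 7% O2. On day 7 it had 307, 220, 215 and 209 CPM at 21% O2 and 291, 233, 220 and 206 CPM at 7% O2. Its sorted day 7 libraries were close to one another and all above those of day 1, with log2 changes of 4.69 (SE 1.11) and 5.19 (SE 1.14). Without the highest day 1 library of each group (replicate 2 at 21% O2, replicate 1 at 7% O2) these were 6.78 and 6.90. The exons of dpy-10 overlap T14B4.19 over 49.0% of their length, and the authors counted fragments without regard to strand. How fragments in the shared stretch were assigned is not stated, so they may be missing from the count of dpy-10 or include reads of T14B4.19. The overlap was 9.64% for sym-1, 5.32% for lpr-3 and at most 2.06% for the other members.

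**Figure D1:**
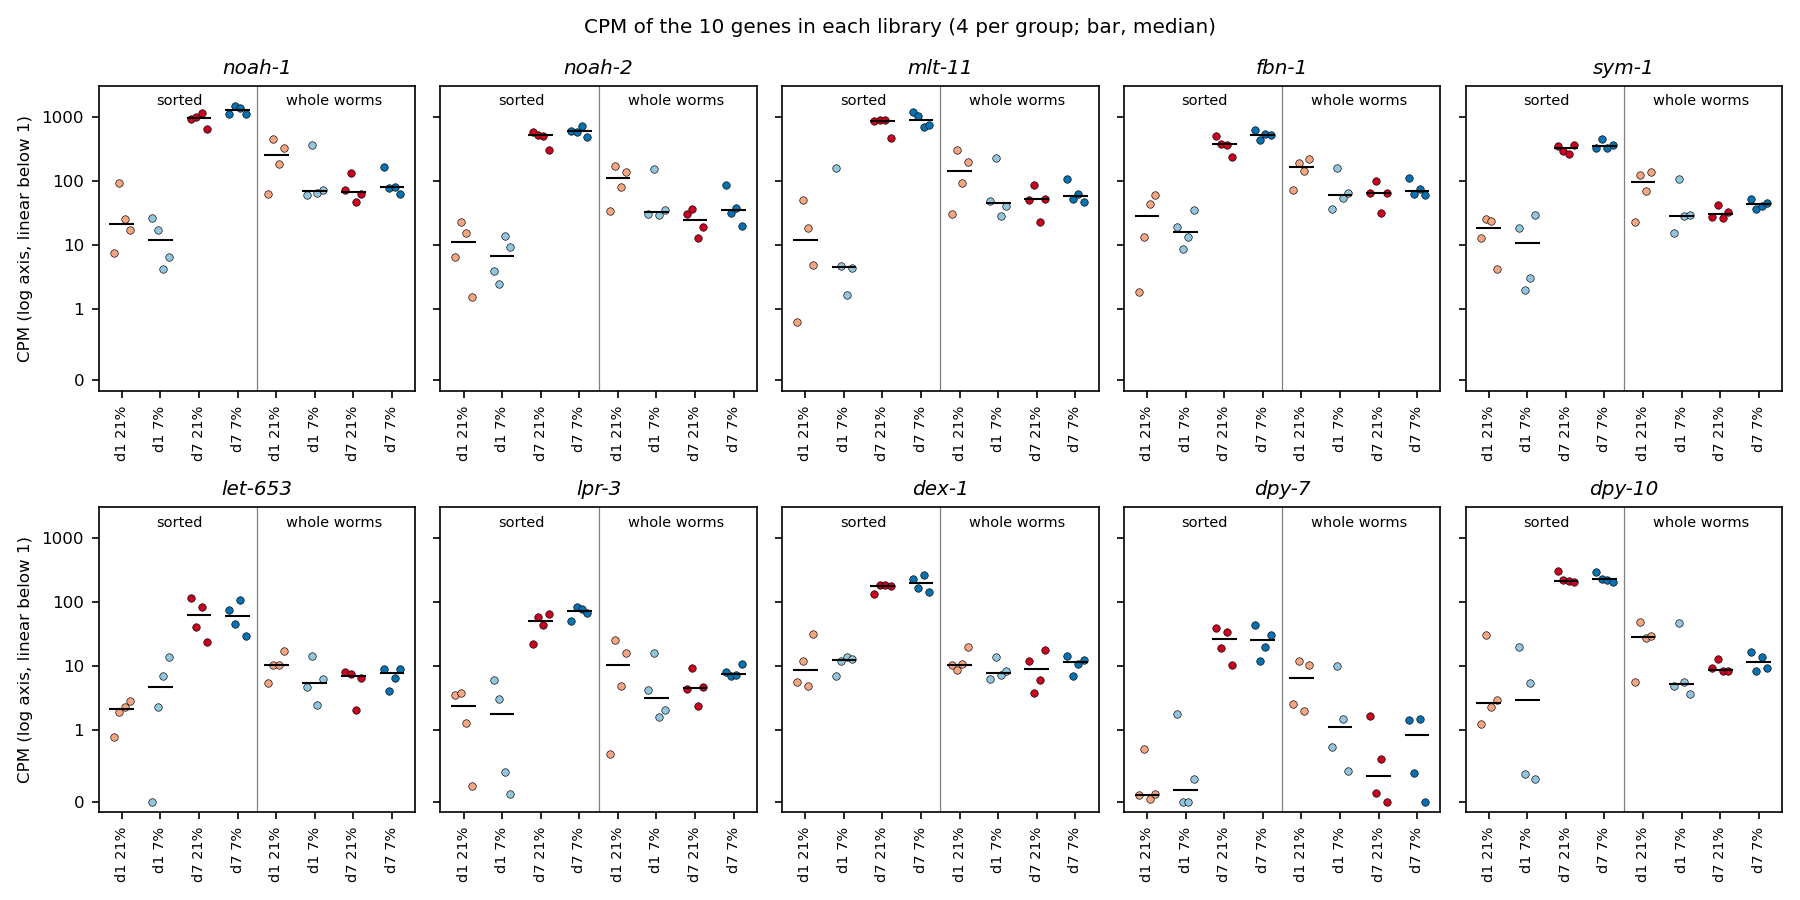
CPM of each of the 10 genes (y axis, log scale, linear below 1) in every library, for day 1 (d1) and day 7 (d7) at 21% and 7% O2 in sorted cells (left of the line) and whole worms (right). Points are libraries, 4 per group, and bars are medians; the medians of all 10 genes are higher in the sorted day 7 groups than in the other 6 groups, while single day 1 whole-worm libraries of dpy-7 and lpr-3 reach into the sorted day 7 range.

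All 10 genes were separated between sorted day 7 and day 1 at both O2 levels, the change the genes were selected on. Over all genes tested, 11.3% were separated with higher values on day 7 at 21% O2 and 13.9% at 7% O2, and nothing is read from the comparison. The median log2 change of the 10 was 4.70 at 21% O2 and 4.82 at 7% O2, beside medians over all genes of -0.20 and -0.28. With the size factors of DESeq2 in place of TMM the medians over all genes moved to 0.09 and -0.06, a shift far smaller than any member's change.

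Set beside the aliquots taken before sorting, the sign of the log2 difference turned between the ages for all members but dex-1, where an estimate was available. On day 1 the libraries of most members overlapped between the sample types. At 7% O2 the difference of let-653 was only -0.16 (SE 1.25). At day 7 the 10 genes were all separated and higher in sorted cells than in whole worms, where 19.8% of tested genes were at 21% O2 and 22.1% at 7% O2. The median log2 difference of the 10 was 3.73 at 21% O2 and 3.73 at 7% O2, with values between 2.53 for fbn-1 and 5.49 for dpy-7 at 21% O2. At day 1 none of the genes was separated with higher values in sorted cells. On day 1 at 21% O2, noah-2, fbn-1, let-653 and dpy-7 were separated with lower values in sorted cells, beside 25.7% of all genes tested, and the median log2 difference of the 10 was -2.30. On day 1 at 7% O2, noah-1, noah-2 and fbn-1 were separated with lower values, beside 26.3% of all genes, with a median of -1.20 over the 9 members tested, dpy-7 having been filtered out there. The log2 difference of dex-1 on day 1 was 0.34 at 21% O2 and 0.45 at 7% O2, with overlapping libraries. These differences use the samples on which the genes were selected and carry no test.

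Levels were compared between genes per kilobase of exon. The place of dpy-10 in this order is uncertain, since its length includes exon sequence shared with T14B4.19, where the assignment of fragments is not stated. In sorted day 7 cells at 21% O2, noah-1 was highest with 243 ± 56.2 CPM per kb (mean ± SD, n = 4), followed by noah-2 with 183 ± 45.01, dpy-10 with 149 ± 29.3 and sym-1 with 129 ± 19.99. Next came mlt-11 with 78.4 ± 20.9 CPM per kb, dex-1 with 42.3 ± 5.82 and fbn-1 with 38.6 ± 11.5. The lowest were let-653 with 25.5 ± 16.1 CPM per kb, lpr-3 with 23.1 ± 9.36 and dpy-7 with 22.6 ± 11.8. The mean ± SD intervals of neighbours in this order overlapped, except for sym-1 above mlt-11 and mlt-11 above dex-1. At 7% O2, noah-1 (333 ± 51.0 CPM per kb) and noah-2 (230 ± 36.2) were again on top and dpy-7 (23.1 ± 11.98) again lowest. There the intervals of noah-1 and noah-2, of noah-2 and sym-1, of dpy-10 and mlt-11 and of mlt-11 and fbn-1 did not overlap. In whole worms noah-1 was the highest of the 10 in all 4 groups, while the lowest was dex-1 on day 1 and dpy-7 on day 7.

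The genes were chosen by their rise in sorted cells and not by the whole-worm libraries, so there the change with age was tested. Those libraries are aliquots of the same cell suspensions, and earlier results of these data were known when the genes were chosen. At 21% O2 all 10 log2 changes were negative, between -3.50 and -0.24, with a median of -1.43 beside -0.01 over all genes. Of the 10 genes, 3 fell and none rose by edgeR's quasi-likelihood test. Of all genes tested, 10.7% were called lower. At an unadjusted p under 0.05, 5 members passed, as did 3231 of all 10894 genes.

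Among the 3 that fell, dpy-7 had the largest change. It had 2.56, 12.02, 2.02 and 10.4 CPM in day 1 whole worms at 21% O2, and 1.65, 0.121, 0.605 and 0 CPM in day 7 whole worms, so that the groups did not overlap. The log2 change was -3.50 (SE 1.15, adjusted p = 0.0444, edgeR with Benjamini-Hochberg adjustment), on counts between 0 and 10 in the day 7 libraries. For noah-2 the levels were 33.8, 167, 79.7 and 137 CPM on day 1 and 29.9, 36.1, 12.5 and 19.1 CPM on day 7, with replicate 1 of day 1 inside the day 7 range. Its log2 change was -2.04 (SE 0.68, adjusted p = 0.0594, edgeR with Benjamini-Hochberg adjustment). For fbn-1 the levels were 71.9, 189, 139 and 214 CPM on day 1 and 64.3, 98.3, 30.98 and 64.9 CPM on day 7, and 1 day 7 library lay above the lowest day 1 library. Its log2 change was -1.19 (SE 0.45, adjusted p = 0.0924, edgeR with Benjamini-Hochberg adjustment).

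The other 7 genes did not pass. Whole-worm noah-1 had 62.1, 451, 183 and 325 CPM on day 1 and 72.7, 132, 46.1 and 62.6 CPM on day 7 at 21% O2, with a log2 change of -1.65 (SE 0.70, adjusted p = 0.133, edgeR with Benjamini-Hochberg adjustment). In these libraries replicate 1 of day 1 lay among the day 7 values, and the other 3 replicates lay above them all. The log2 change was -1.48 (SE 0.75) for mlt-11, -1.41 (SE 0.57) for sym-1, -1.45 (SE 0.74) for dpy-10, -1.11 (SE 0.81) for lpr-3, -0.78 (SE 0.49) for let-653 and -0.24 (SE 0.41) for dex-1, with adjusted p between 0.113 and 0.744 in edgeR.

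The count of 3 depended on single libraries. Without replicate 2 of day 1 at 21% O2 it was 0, as it was without replicate 4 of day 7 at 21% O2, and without replicate 4 of day 1 or replicate 3 of day 7 at 21% O2 it was 1. Without replicate 1 of day 1 at 21% O2, or without replicate 2 of day 1 at 7% O2, which enters the shared estimate of the spread, it was 7. The calls over all genes in these runs are not given beside the counts, so nothing particular to the members is read from them.

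At 7% O2 the 10 genes showed no change with age that passed the test in whole worms. None was called by edgeR's quasi-likelihood test, none had an unadjusted p under 0.05 and none was called by DESeq2, where 15.9% of all genes were called by edgeR in either direction. The median log2 change was -0.19, with 7 negative and 3 positive values. The lowest was dpy-7 at -1.90 (SE 1.08, 95% confidence interval -4.15 to 0.35) and the highest was lpr-3 at 0.47 (SE 0.80, 95% confidence interval -1.22 to 2.17). Of the 3 genes called at 21% O2, the interval at 7% O2 included the 21% O2 change for dpy-7, but not for noah-2 (95% confidence interval -1.88 to 0.93) or fbn-1 (-0.97 to 0.95). That comparison leaves out the spread of the 21% O2 change. Tested directly, the difference in age change between the O2 levels was not called for noah-2 or fbn-1 (adjusted p = 0.493 and 0.445, edgeR with Benjamini-Hochberg adjustment).

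**Figure D2:**
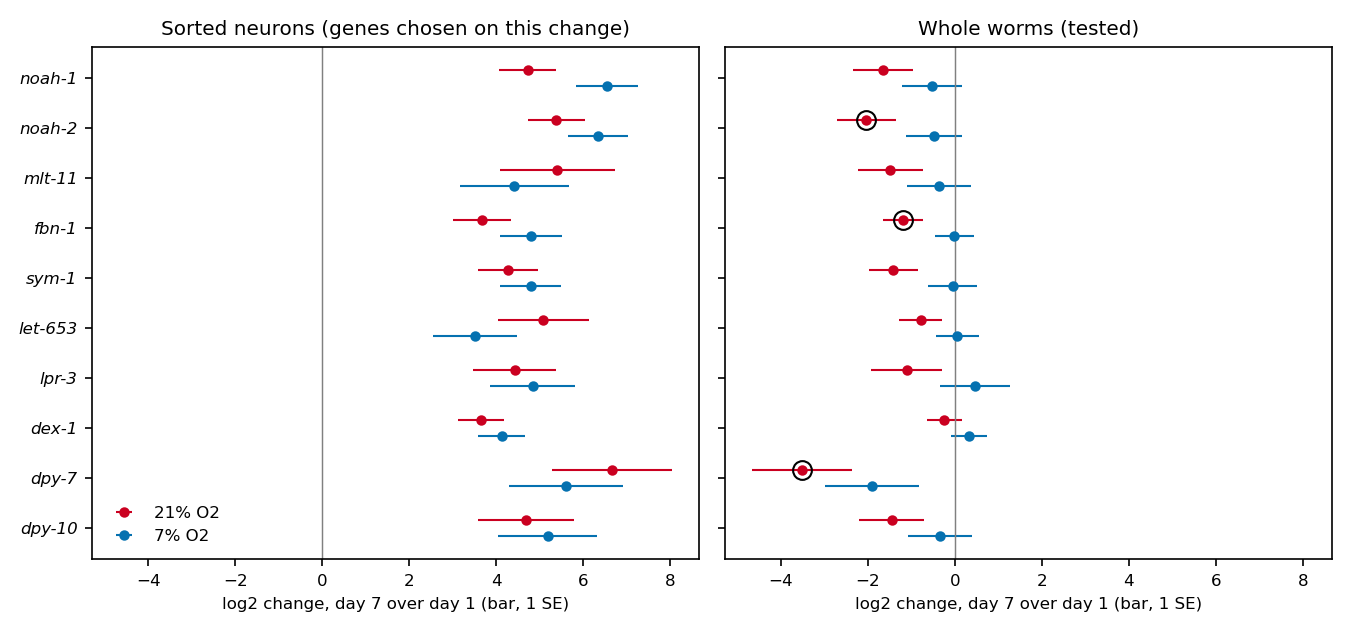
Log2 change from day 1 to day 7 (x axis; bars, 1 SE) of the 10 genes in sorted cells (left) and whole worms (right) at 21% and 7% O2. All sorted values lie above 3, in the samples the genes were selected on; circles mark dpy-7, noah-2 and fbn-1, called lower in whole worms at 21% O2.

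The day 1 whole-worm libraries differed widely within their groups. At 7% O2, noah-1 had 361 CPM in replicate 2 and 60.0, 64.3 and 71.5 CPM in replicates 1, 3 and 4. The same library had 47.8 CPM of dpy-10, beside 3.67 to 5.62 CPM in the other 3, and 229 CPM of mlt-11, beside 28.1 to 48.5 CPM. At 21% O2 the summed level of the 10 genes was 246, 1335, 619 and 1102 CPM in replicates 1 to 4. The sum was thus highest in replicates 2 and 4 at 21% O2 and in replicate 2 at 7% O2, with replicate 3 at 21% O2 in between. The levels of dex-1 departed from this at 21% O2, with 10.4, 8.63, 10.7 and 19.7 CPM, and were lowest in replicate 2.

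Other lists differed in these libraries too. In replicate 2 of day 1 at 7% O2, the adult epidermis collagens col-7, col-19, col-62 and col-63 summed to 22.3 CPM, beside 97.2 to 228 CPM in the other 3 replicates. Body wall muscle genes summed to 4152 CPM there, beside 5946 to 10169 CPM. In replicate 2 at 21% O2 the adult collagens summed to 103 CPM, beside 190.5 to 201 CPM in the others, but in replicate 4, which was also high in the 10 genes, they summed to 201 CPM. The early embryo list, led by the hatching protease gene hch-1, summed to 5.23, 37.6, 21.5 and 25.1 CPM in replicates 1 to 4 at 21% O2 and to 4.14, 25.8, 6.32 and 7.44 CPM at 7% O2, so that it was high in the libraries that were high in the 10 genes. The part of these differences in the levels of the 10 genes was not tested.

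**Figure D3:**
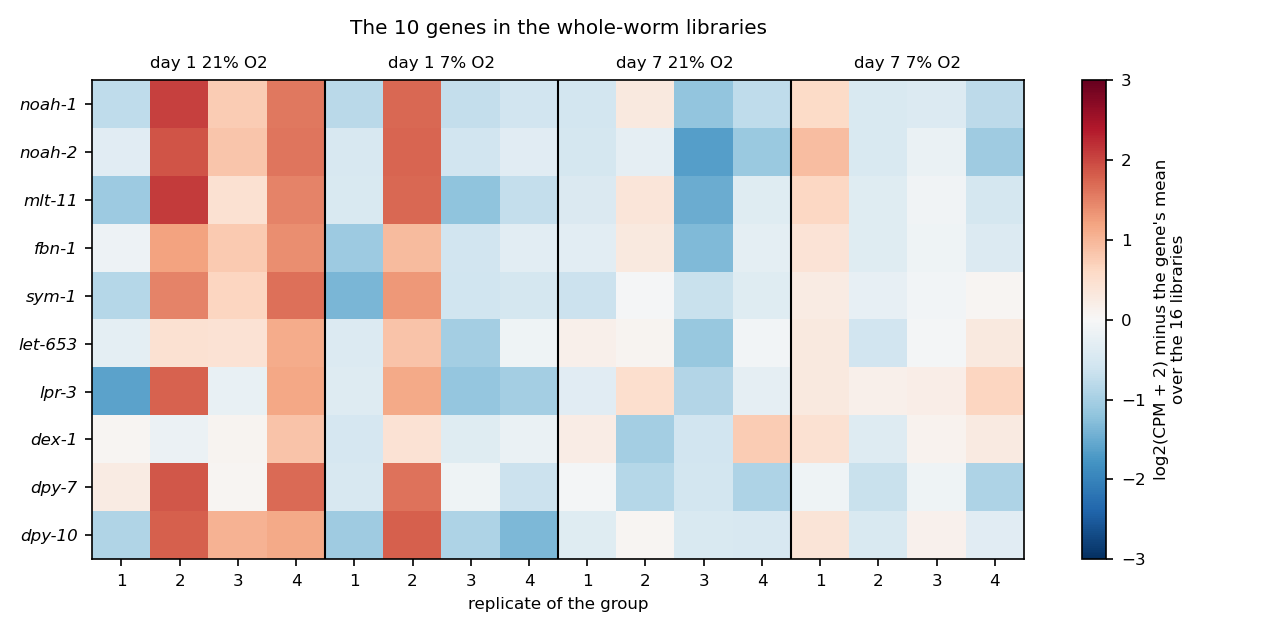
Level of each gene (rows) in each whole-worm library (columns, by group and replicate), as log2(CPM + 2) minus the gene's mean over the 16 libraries; red is above and blue below that mean. The reddest columns are replicates 2 and 4 of day 1 at 21% O2 and replicate 2 of day 1 at 7% O2. Replicate 3 of day 1 at 21% O2 and replicate 1 of day 7 at 7% O2 are also above the mean for most genes. The row of dex-1 departs from the others.

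Across the 16 whole-worm libraries, Pearson's r between a gene's log2(CPM + 2) and the mean of the other 9 was 0.971 for noah-1, 0.965 for mlt-11, 0.944 for sym-1 and 0.935 for fbn-1. It was 0.926 for dpy-10, 0.923 for noah-2, 0.842 for let-653, 0.810 for dpy-7 and 0.796 for lpr-3. The value for dex-1 was 0.412, the lowest of the 10. Across the 16 sorted libraries r ran from 0.882 for let-653 to 0.978 for noah-1, and there the points fall into the 2 ages on which the genes were selected. Libraries of a group share age, O2 level and food, and no p is given for these values.

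The O2 level was tested in each sample type and age. In day 1 whole worms all 10 log2 differences between 21% and 7% O2 were positive, with a median of 0.82, but none was called by edgeR's quasi-likelihood test, none had an unadjusted p under 0.05 and DESeq2 called none. The share of all genes called was 0.00918%. The smallest difference was 0.39 (SE 0.41, 95% confidence interval -0.45 to 1.24) for dex-1 and the largest 1.04 (SE 0.98, 95% confidence interval -1.02 to 3.09) for dpy-7. Without replicate 2 of day 1 at 7% O2, edgeR called 3 members higher at 21% O2, namely fbn-1, sym-1 and dpy-10, and its calls over all genes went from 1 to 186.

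In day 7 whole worms all 10 differences were negative, between -0.83 for noah-2 and -0.17 for dex-1, and none was called by edgeR (0 at an unadjusted p under 0.05, 0 by DESeq2), beside 0.0551% of all genes. The difference in the age change between the O2 levels was negative for all 10 genes, with a median of -1.15. Its lowest value was -1.60 (SE 1.54) for dpy-7 and its highest -0.56 (SE 0.58) for dex-1. None was called by edgeR (0 at an unadjusted p under 0.05, 0 by DESeq2), beside 0.211% of all genes. The fall at 21% O2 is therefore not shown to differ from the change at 7% O2. Without replicate 2 of day 1 at 7% O2 that difference was called for sym-1 and dpy-10, while the calls over all genes went from 23 to 133.

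In sorted cells of day 1, noah-1 was higher at 21% than at 7% O2 by 1.37 on the log2 scale (SE 0.58, 95% confidence interval 0.16 to 2.57), the 1 member with an unadjusted p under 0.05, and its adjusted p was 0.617 in edgeR. Without replicate 2 of sorted day 1 at 21% O2 the difference was 0.27. The lowest difference was -1.55 (SE 0.91) for let-653. None of the 10 was called by edgeR or DESeq2, beside 0.0939% of all genes. In sorted cells of day 7 the differences ran from -0.56 for lpr-3 to 0.03 for let-653, and none was called by edgeR (0 at an unadjusted p under 0.05, 0 by DESeq2), beside 0.154% of all genes. The high sorted day 7 levels were thus present at both O2 levels, with the summed CPM of the 10 between 2485 and 3809 at 21% O2 and between 3648 and 4535 at 7% O2.

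Some marker lists were higher in sorted day 7 cells, as the 10 genes were, and others were lower or overlapped between the ages. Genes of epithelial junctions and attachment (ajm-1, dlg-1, hmr-1, che-14, vab-10, mup-4 and vab-19) summed to 1481 to 2911 CPM in sorted day 1 libraries and 4472 to 9367 CPM in sorted day 7 libraries, beside 795 to 2076 CPM in whole worms. The adherens junction gene ajm-1 ran from 55.5 to 125 CPM in sorted day 1 cells and from 1028 to 2309 CPM in sorted day 7 cells. That is a steeper rise than the sum of its list, so ajm-1 does not stand for the other genes of the list. Adult epidermis collagens, in contrast, summed to 14.9 to 115.4 CPM in sorted day 1 libraries and 0.0700 to 8.37 CPM in sorted day 7 libraries, with col-7 at 0 in all sorted day 7 libraries. These collagens were also low in day 7 whole worms, between 0.725 and 9.48 CPM, so that their low level was not particular to sorted cells.

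Intestinal genes summed to 642 to 4281 CPM in sorted day 1 libraries and 5432 to 13988 CPM in sorted day 7 libraries, against 15363 to 54024 CPM in whole worms. Glial genes summed to 36.3 to 87.0 CPM in sorted day 1 libraries and to 3.78 to 52.2 CPM in those of day 7. Body wall muscle genes summed to 1581 to 8743 CPM in sorted day 1 libraries and to 614 to 2021 CPM in those of day 7. The sums of pharynx muscle, coelomocyte and germline genes overlapped between the ages in sorted cells, and sperm genes were at or near 0. The early embryo list summed to 0.232 to 5.72 CPM in sorted day 1 libraries and to 180 to 489 CPM in those of day 7. Nearly all of the latter was hch-1, which ran from 180 to 488 CPM there and encodes the protease that digests the eggshell at hatching. The other genes of that list (end-1, end-3, med-2, tbx-37, tbx-38 and pes-10) were at or near 0 there, with end-1, end-3, med-2, tbx-37 and pes-10 at 0 in all 4 libraries at 21% O2. The part of junction genes, intestinal genes and hch-1 in the level of the 10 was not tested.

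**Figure D4:**
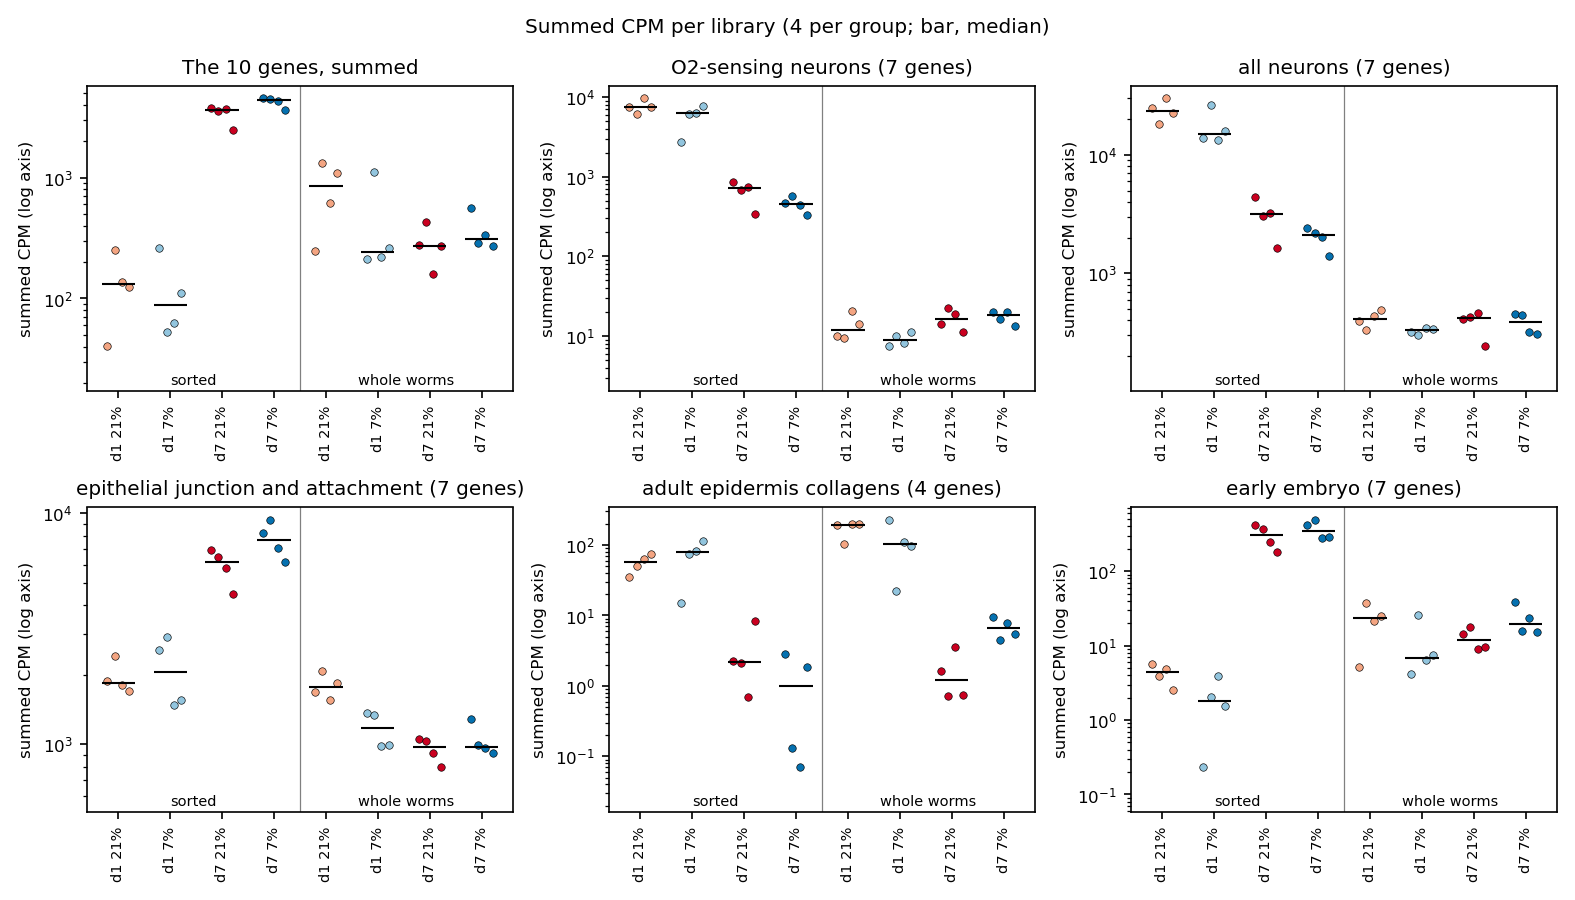
Summed CPM per library (y axes, log scale) of the 10 genes and of 5 marker lists, by group (d1 and d7, days 1 and 7; 21% and 7% O2). Points are libraries, 4 per group, and bars are medians. The 10 genes, the junction list and the early embryo list are highest in sorted day 7 cells. There the early embryo sum is nearly all hch-1, and both neuronal lists are lower than in sorted day 1 cells.

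Related genes were followed in 6 companion lists. Over all genes tested in sorted cells, 11.3% at 21% O2 and 13.9% at 7% O2 were separated with higher day 7 values. The shares with lower day 7 values were 19.7% and 15.8%. In whole worms with age, 10.7% of all genes were called lower at 21% O2, and 15.9% were called in either direction at 7% O2. These shares stand beside each count below. Of the other furrow collagens (dpy-2, dpy-3, dpy-8 and dpy-9), 3 were tested in sorted cells and 2 of these were separated with higher day 7 values at each O2 level. The furrow collagen dpy-2 had 0.963 ± 1.63 CPM (SD, n = 4) in sorted day 1 cells and 69.3 ± 12.5 in sorted day 7 cells at 21% O2. In whole worms it fell at 21% O2, by 2.92 on the log2 scale (SE 0.97, adjusted p = 0.0534, edgeR with Benjamini-Hochberg adjustment). It was the only called gene of the 2 tested in that comparison, in which 18.7% of all genes were called in either direction. At dpy-3 the sorted day 7 level was 3.82 ± 2.38 CPM at 21% O2 and 11.3 ± 9.93 CPM at 7% O2.

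Of 12 other collagens that shape the body, 4 were tested in sorted cells, and 3 were separated with higher day 7 values at each O2 level. The highest were dpy-14, with 26.8 ± 43.5 CPM in sorted day 1 cells and 468 ± 122.2 CPM in sorted day 7 cells at 21% O2, and sqt-3, with 19.97 ± 30.4 and 318 ± 55.02 CPM. In whole worms 4 were tested, none was called at 21% O2, and the median log2 change there was -2.01. At 7% O2 the adult blister collagen bli-1 was called lower, with 4.77 ± 8.24 CPM on day 1 and 0.0601 ± 0.0704 CPM on day 7 (adjusted p = 0.012, edgeR with Benjamini-Hochberg adjustment), and it was at 0 in all sorted day 7 libraries.

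Other apical matrix genes, 44 in number, went in both directions. Of 33 tested in sorted cells, 6 were separated with higher day 7 values and 5 with lower ones at 21% O2, and 9 and 7 at 7% O2. Over all genes, 19.7% were separated with lower day 7 values at 21% O2 and 15.8% at 7% O2. The leucine-rich repeat gene let-4 had 113 ± 21.4 CPM on day 7 at 21% O2 and 5.77 ± 2.83 on day 1, and the ZP domain gene cutl-8 had 83.5 ± 18.2 CPM on day 7 and 3.33 ± 3.66 on day 1. The cuticlin-like gene cutl-26 went the other way, from 138 ± 36.3 to 8.48 ± 3.53 CPM. In whole worms 22 were tested, with 3 called higher and 4 lower at 21% O2 and 3 higher and 1 lower at 7% O2. The lipocalin gene lpr-5 fell at 21% O2, from 6.41 ± 8.54 to 0.124 ± 0.248 CPM (adjusted p = 0.00512, edgeR with Benjamini-Hochberg adjustment), and cutl-26 fell at both O2 levels, by 1.86 and 1.88 on the log2 scale. The gene cutl-8 rose at both O2 levels, by 2.66 and 3.33 on the log2 scale. The cuticlin gene cut-5 was also called higher at both, at 1.47 ± 1.86 and 1.22 ± 1.43 CPM on day 7 and at most 0.0744 CPM on average on day 1, and cutl-23 was called higher at 7% O2.

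Of 14 other molting genes, 12 were tested in sorted cells, with 5 separated higher and 2 lower on day 7 at 21% O2 and 7 higher and 2 lower at 7% O2. The gene acn-1, related to angiotensin-converting enzyme, had 6.94 ± 9.83 CPM in sorted day 1 cells and 437.5 ± 77.98 in sorted day 7 cells at 21% O2, and the endocytic receptor gene lrp-1 had 112 ± 82.5 and 744 ± 217 CPM. The astacin protease gene nas-37, needed to shed the old cuticle, was lower on day 7 in sorted cells, with 9.47 ± 6.94 and 0.172 ± 0.209 CPM at 21% O2. In whole worms nas-37 fell by 3.32 at 21% O2 (SE 0.51, adjusted p = 0.000114) and by 4.54 at 7% O2 (SE 0.59, adjusted p = 3.28e-05) on the log2 scale, and its groups did not overlap (edgeR with Benjamini-Hochberg adjustment). The kinase gene nekl-2 rose in whole worms at both O2 levels, by 1.36 and 1.62, and lrp-1 rose at 7% O2 by 1.22.

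All 9 genes of collagen processing and crosslinking were tested. In sorted cells pdi-2 and dpy-11, an isomerase and a thioredoxin-like gene, were separated with higher day 7 values at both O2 levels, and no gene of the list with lower ones. In whole worms at 21% O2, 4 of the 9 fell. These were the prolyl hydroxylase subunit genes dpy-18 (-1.04), phy-2 (-1.31) and pdi-2 (-0.61) and the dual oxidase gene bli-3, with log2 changes between -1.31 and -0.61 and adjusted p between 0.00497 and 0.0915 in edgeR. At 7% O2 no gene of the list was called lower by edgeR and the protease gene dpy-31 rose by 1.51.

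Of 10 epidermal transcription factors tested, 5 were separated with higher and 3 with lower day 7 values in sorted cells at 21% O2, and 4 and 3 at 7% O2. The shares over all genes were 11.3% higher and 19.7% lower at 21% O2, and 13.9% and 15.8% at 7% O2. The GATA factor gene elt-3, used through the main body epidermis, had 6.42 ± 3.02 CPM in sorted day 1 cells and 179 ± 46.2 CPM in sorted day 7 cells at 21% O2, and 3.71 to 5.31 CPM and 165 to 273 CPM at 7% O2. In whole worms at 21% O2, blmp-1 fell by 1.70 on the log2 scale (SE 0.45, adjusted p = 0.0124) and lin-26 rose by 0.72 (SE 0.15, adjusted p = 0.00216) by edgeR with Benjamini-Hochberg adjustment. None of the 10 was called at 7% O2 by edgeR.

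The genes whose pattern was most like the mean of the 10 were ranked by Pearson's r. In sorted cells the libraries fall into the ages on which the 10 were selected. A high r there can come from a rise between day 1 and day 7 alone, so no shared regulation is read from it. Over the 16 sorted libraries and 11710 other genes, the 8 highest were Y110A2AL.4 (0.995), dao-2 (0.994), F15B9.8 (0.993), elt-3 (0.990), hch-1 (0.988), nlp-31 (0.987), fln-2 (0.987) and mlt-8 (0.986). Of these, the filamin gene fln-2 was the most abundant, at 181 CPM on average in sorted day 1 libraries and 3981 CPM in those of day 7. Over the 16 whole-worm libraries and 10884 other genes, the 8 highest were dpy-17 (0.967), dpy-14 (0.949), mlt-8 (0.946), lam-3 (0.944), C09F9.2 (0.942), clec-78 (0.941), dys-1 (0.937) and F53B3.5 (0.937). The molting gene mlt-8 stood in both lists, with 10.4 CPM on average in whole worms and 194 CPM in sorted day 7 cells. The cuticle collagen gene dpy-17, first in whole worms, had 12.3 CPM in sorted day 1 cells and 305 CPM in sorted day 7 cells.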

How the data were processed

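RNA was sequenced from sorted cells and from whole-worm aliquots, 32 libraries in all. According to the authors' methods and processing notes, reads were trimmed with Cutadapt 1.9, aligned with STAR 2.5.2b to WBcel235, freed of ribosomal RNA genes and counted by featureCounts 1.5.1 in its unstranded mode. The deposited values are these raw counts per gene, with no normalization. The high share of F31C3.14 lowers the depth left for other genes, and the precision of a low gene is limited by its counts.

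Groups came from the sample labels. Genes were kept by filterByExpr (minimum count 10) and tested with edgeR 4.0.16 (robust quasi-likelihood F test, TMM, Benjamini-Hochberg over all genes tested) in R 4.3.3 with limma 3.58.1, in the 16 libraries of a sample type. DESeq2 1.42.0 was an alternative. Sorted cells and whole worms were set side by side in the 8 libraries of an age and O2 level, as unpaired groups. The whole-worm aliquots came from the suspensions that were sorted, so the SEs of these differences leave out any pairing. Correlations used log2(CPM + 2). Exon lengths, overlaps and positions came from the Ensembl annotation of WBcel235. The tests were tested on simulated data.

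The members and all lists were chosen with earlier results of these data known. Besides the members, a listed gene is named if called in a tested comparison (at most 4 per list and comparison) or among the 2 of its list highest in sorted day 7 cells, together with the 8 genes most like the members in each sample type. Of 180 listed genes 178 were matched, and sym-5 and elt-5 were not used here. Promoter sequences were not used here. Alternatives were DESeq2, only the 2 groups compared, all 32 libraries in a model, DESeq2 size factors, leaving out F31C3.14, no filter, a floor of 1 CPM throughout a group, a threshold of 0.05, dropping the fold limit, blocking on replicate number and omitting single libraries in turn. These p-values measure the spread between biological replicates as the labels give them.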

Additional observations from a re-analysis of the deposited data

Results flagged for a closer look

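In each group of 4 libraries, the highest and the lowest level of each member were compared with the nearest other library. Of 80 groups checked, 11 (13.8%) held a library whose gap to the others, as a share of the group's range, passed Dixon's 95% critical value. For independent, normally distributed values chance gives about 1 in 20. The check used CPM without logarithms, and the 10 genes moved together in the same libraries, so no excess over chance is read from that share. Replicate 2 of day 1 whole worms at 7% O2 was such a library for 6 genes, with 361 CPM of noah-1, 152 CPM of noah-2, 229 CPM of mlt-11, 108 CPM of sym-1, 9.93 CPM of dpy-7 and 47.8 CPM of dpy-10, each above the other 3 libraries. In sorted day 1 cells, mlt-11 stood at 160 CPM in replicate 1 at 7% O2 (others 1.67 to 4.62), and in replicate 2 at 21% O2 dpy-7 stood at 0.740 CPM and dpy-10 at 30.7 CPM. In sorted day 7 cells at 21% O2, mlt-11 was low in replicate 4 at 462 CPM (others 847 to 889) and dpy-10 was high in replicate 1 at 307 CPM (others 209 to 220).

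At 21% O2, every sorted day 7 library had more dpy-7 than every sorted day 1 library (log2 change 6.66), while every day 7 whole-worm library had less than every day 1 whole-worm library (log2 change -3.50). The difference between the sample types was not tested, since the sorted change was used to select the gene.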

How the results depend on the processing

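Whole-worm counts of members called with age at 21% O2 (3 lower) were 1 at an adjusted p under 0.05, 1 with no low-count filter, 1 with all 32 libraries in a model, 5 with DESeq2 and 6 with only the 2 groups compared. All calls were in the direction of a fall, and the cause of these moves was not tested, apart from the stricter threshold. At that threshold 1506 of all 10894 genes were called in either direction, against 2034 in the main run. For the other settings the calls over all genes are not given beside these counts, so nothing particular to the 10 genes is read from them. With the replicate number as a block (replicate block) the count was 5, but few same-numbered libraries moved together. Of 24 same-numbered pairs in each sample type, 0 in sorted cells and 5 in whole worms had deviations correlated over 0.1. The highest value was 0.42, for replicate 2 of day 1 whole worms at 21% and 7% O2, both of which were high in the 10 genes. Whether these libraries shared a preparation was not tested. The block changed no other count of calls. Leaving out each library, the count ran from 0 to 7. For age at 7% O2 (none called), no filter gave 1 (dpy-7) and leaving out a library gave 0 to 1, and the log2 change of dpy-10 was 0.41 with the block and ran from -0.64 to 1.37 without single libraries. For O2 on day 1 in whole worms leaving out a library gave 0 to 3 calls, and for age by O2 0 to 2, in both cases moved by replicate 2 of day 1 at 7% O2. Leave-one-out values of other members whose sign turned ran from -0.70 to 0.045 for dex-1 (age at 21% O2). Between 21% and 7% O2 on day 7 they ran from -0.63 to 0.10 for dex-1 in whole worms and from -0.38 to 0.40 for let-653 in sorted cells. For O2 in sorted cells of day 1 they ran from -2.40 to 2.35 for mlt-11, from -2.73 to 1.22 for dpy-7 and from -1.59 to 2.23 for dpy-10. Estimates of uncalled members turned sign for 7 of 10 members with age at 7% O2 in whole worms, 4 with O2 on day 7 in whole worms, and 6 and 4 with O2 in sorted cells of days 1 and 7. Over all genes, DESeq2 called more genes than edgeR for O2 in whole worms of day 1 (211 against 1) and day 7 (40 against 6), for age by O2 (294 against 23) and for O2 in sorted cells of day 1 (253 against 11) and day 7 (237 against 18), with no member among them. Low counts limit dpy-7 most.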
